A study of Mus musculus with 12 samples.

Results

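The Hox genes of the 4 mouse clusters were followed in embryonic stem (ES) cells that lacked 1 or both of a pair of Polycomb proteins. Members were all probe sets whose platform gene symbol was 1 of 38 Hox gene names, in the clusters Hoxa on chromosome 6, Hoxb on chromosome 11, Hoxc on chromosome 15 and Hoxd on chromosome 2. Of the 38 genes, 33 had a probe set of their own, 48 probe sets in all, among 18193 genes with such a probe set on the array. Of these 33, 26 passed the filter on low signals and were tested among 13985 genes. The remaining 5 genes, Hoxa6, Hoxb8, Hoxc11, Hoxc12 and Hoxd4, had no probe set that named them alone and were not analysed here.

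The groups were Ring1B/Eed double deficient cells, Ring1B deficient cells, Eed deficient cells and wild type cells, with 3 arrays each and 12 in all. Both single mutants were made by gene targeting, and the double mutant carried a targeted Ring1B in cells that already lacked Eed. The labels name them as ES cells, with colony form as the check of the undifferentiated state and the 3 arrays of a genotype as biological replicates. The labels do not say how many clones stood for a genotype, so a difference between cell lines and a difference between genotypes cannot be told apart.

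Hox genes encode homeodomain transcription factors that give cells their position along the body axis. Within a cluster they are numbered by paralogue group in the order in which they lie on the chromosome. Low numbers act towards the head and high numbers towards the tail and the limb ends, and in embryos the low numbers are switched on before the high ones. In ES cells the clusters are textbook targets of Polycomb repression. Eed is a core subunit of Polycomb repressive complex 2 (PRC2), which methylates a lysine of histone H3, and Ring1B, encoded by Rnf2, is the ubiquitin ligase of Polycomb repressive complex 1 (PRC1), which marks histone H2A.

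Mammalian Polycomb target promoters are commonly rich in the dinucleotide CG, so promoters are shown for 5 genes described below and for 1 gene, Hoxd12, whose signal stayed low in every genotype. Each line holds the 250 bases before the RefSeq start on GRCm38.p6, read along the gene's strand with every CG in capitals.
Hoxa9 (rose in each mutant, chr6:52227371-52227620, minus strand): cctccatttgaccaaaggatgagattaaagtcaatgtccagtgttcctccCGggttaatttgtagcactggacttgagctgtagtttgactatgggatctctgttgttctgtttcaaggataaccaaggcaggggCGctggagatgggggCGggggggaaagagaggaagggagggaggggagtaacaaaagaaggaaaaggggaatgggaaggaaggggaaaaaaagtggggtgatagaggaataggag
Hoxd10 (rose in each mutant, chr2:74691641-74691890, plus strand): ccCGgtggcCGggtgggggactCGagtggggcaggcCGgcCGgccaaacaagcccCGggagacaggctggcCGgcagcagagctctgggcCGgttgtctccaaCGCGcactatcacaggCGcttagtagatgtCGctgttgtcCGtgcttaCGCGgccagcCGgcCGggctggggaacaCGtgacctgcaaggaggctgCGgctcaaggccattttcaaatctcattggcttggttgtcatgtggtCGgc
Hoxd13 (rose in each mutant, chr2:74667975-74668224, plus strand): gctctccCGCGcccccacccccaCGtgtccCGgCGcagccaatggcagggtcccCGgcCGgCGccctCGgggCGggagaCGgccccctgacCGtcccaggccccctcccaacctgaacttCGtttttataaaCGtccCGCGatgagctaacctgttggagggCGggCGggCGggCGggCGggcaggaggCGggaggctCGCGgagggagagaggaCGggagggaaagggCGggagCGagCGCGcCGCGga
Hoxc4 (rose in each mutant, chr15:103034145-103034394, plus strand): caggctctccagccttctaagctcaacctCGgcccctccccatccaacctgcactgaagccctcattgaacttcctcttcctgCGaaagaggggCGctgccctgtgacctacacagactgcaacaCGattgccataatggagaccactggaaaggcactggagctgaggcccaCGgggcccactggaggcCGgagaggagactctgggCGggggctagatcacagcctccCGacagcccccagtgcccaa
Hoxb4 (smaller rise in each mutant, chr11:96318017-96318266, plus strand): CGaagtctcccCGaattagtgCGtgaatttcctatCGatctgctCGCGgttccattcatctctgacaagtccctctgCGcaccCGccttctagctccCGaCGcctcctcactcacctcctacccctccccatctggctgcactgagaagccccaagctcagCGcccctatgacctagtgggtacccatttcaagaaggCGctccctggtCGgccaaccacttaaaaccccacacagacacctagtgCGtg
Hoxd12 (low throughout, chr2:74674763-74675012, plus strand): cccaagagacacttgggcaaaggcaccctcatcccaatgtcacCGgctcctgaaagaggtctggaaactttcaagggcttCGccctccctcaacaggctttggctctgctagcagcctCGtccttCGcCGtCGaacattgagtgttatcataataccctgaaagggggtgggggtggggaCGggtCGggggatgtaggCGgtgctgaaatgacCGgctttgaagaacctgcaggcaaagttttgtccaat

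The CG count was 3 in the Hoxa9 window, 20 in that of Hoxd10, 31 in that of Hoxd13, 8 in that of Hoxc4, 14 in that of Hoxb4 and 10 in that of Hoxd12. Windows were given for 22 of the 38 genes, 24 windows in all, since Hoxa10 and Hoxd11 each had a further start. They held between 2 and 35 CG, with a median of 12.5. Over all 32851 RefSeq windows of this length the median was 6, 92.1% held at least 1 CG and 31.5% held at least as many as the Hox median. CG reads the same on both strands, so 1 search covers both. Across the 15 tested genes with a window, the CG count had a Spearman correlation of -0.44 with the log2 change in double deficient cells and of -0.47 with that in Ring1B deficient cells. These genes share clusters and arrays, so both correlations are given as a description. Hoxa9, with 3 CG, had the largest log2 change of the 26 genes in each mutant, and Hoxa13, with 35, was called in none.

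The values are the authors' MAS5 signals on a linear scale, with a trimmed mean of 100 on wild type replicate 1, the array checked. The array medians lay between 19.07 and 28.01, and replicate arrays of a genotype correlated at 0.963 to 0.984 over the log2 signals of the genes tested. The targeted genes were read by several probe sets. The brighter Eed probe set averaged 71.21 ± 21.0 in double deficient cells, 1642 ± 283 in Ring1B deficient cells, 37.82 ± 13.1 in Eed deficient cells and 1428 ± 159 in wild type cells (SD, n = 3 each). The brightest probe set of Rnf2 averaged 382.8 ± 18.8, 467.9 ± 65.7, 778.8 ± 168 and 850.9 ± 124 in the same order of genotypes. A dimmer Rnf2 probe set ran the other way, with 38.47 ± 3.8, 60.18 ± 8.27, 22.3 ± 3.23 and 29.86 ± 7.02. Whether these probes lie in the deleted part of the gene was not known here. Of 12 markers of undifferentiated ES cells, 8 were lower in double deficient cells, 0 of 12 were called in Ring1B deficient cells and 1 was lower in Eed deficient cells, against wild type. Over all genes 11.4%, 2.5% and 4.55% were called lower in double, Ring1B and Eed deficient cells. None of these 12 lay below the 40th percentile of the signals on all 3 arrays of any genotype.

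In wild type cells most Hox signals were near the array background. A gene was tested if at least 3 of the 12 arrays showed it above the 40th percentile of that array, which lay between 12.1 and 19.1 signal units. Of the 26 tested genes, 13 had no wild type array above that percentile, 4 had 1 or 2 and 9 had all 3. Genes without all 3 wild type arrays above that percentile could pass only with the help of mutant arrays in which they were high. Counts are therefore also given for all 33 genes without the filter. Hoxa5, needed for lung development, had a wild type signal of 56.98 ± 16.8 by its brighter probe set, well above that percentile. Hoxc4 had one of 1.640 ± 0.923, below it (SD, n = 3 each). A second Hoxa5 probe set read only 15.91, 10.79 and 4.75 in wild type cells, so the wild type level of Hoxa5 depends on the probe set. Levels of different genes come from different probes and are not ranked. Fold changes are log2 changes of signal plus 5, which understates the change of a gene near background.

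**Figure D1:**
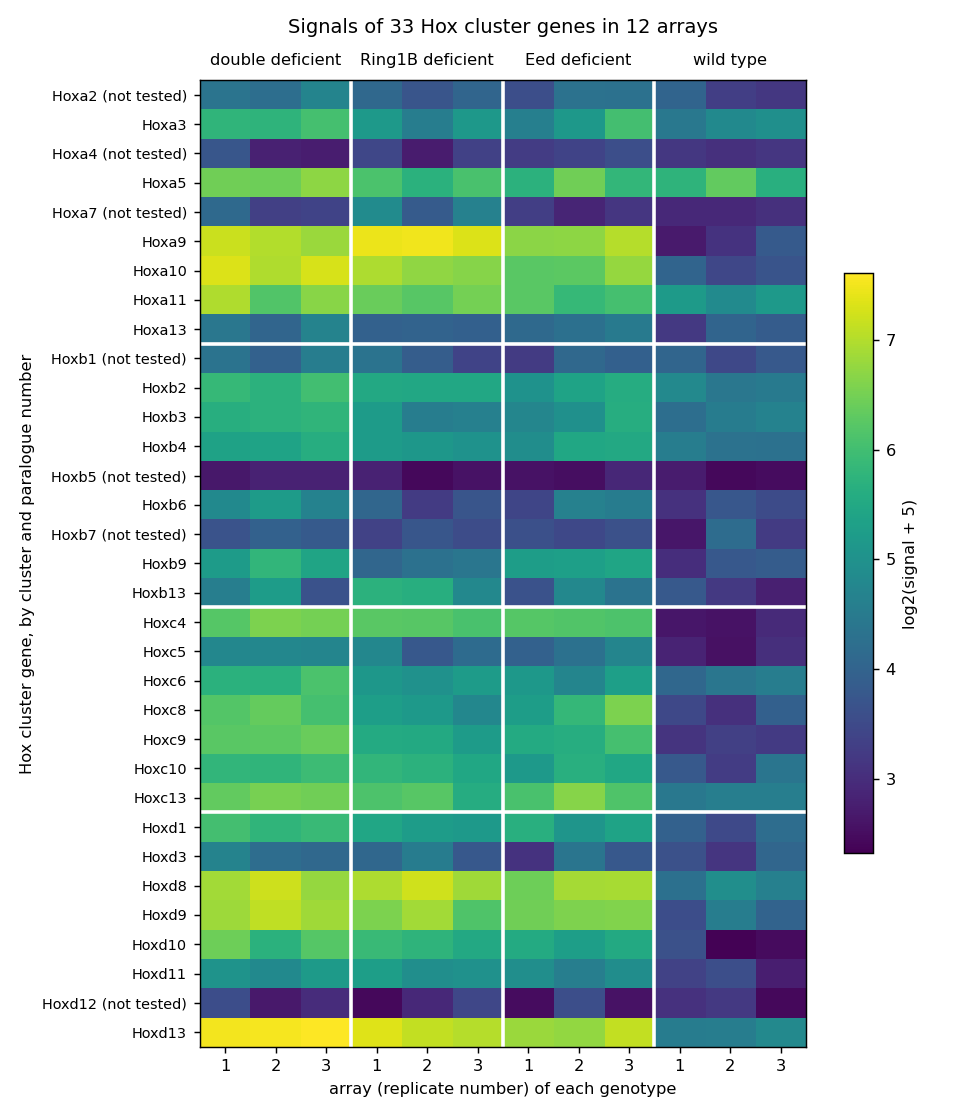
Log2 of signal plus 5 for the 33 Hox genes with a probe set of their own (rows, by cluster and paralogue number) in the 12 arrays (columns, by genotype and replicate number). The 3 wild type columns are darkest for most rows, with Hoxa5 among the exceptions, and the 7 rows of genes not tested stay dark in most columns.

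Hox genes of all 4 clusters were higher in double deficient cells. Compared with wild type, 23 of 26 tested genes rose and 0 fell, with a median log2 change of 1.92. Over all 13985 genes, 19.5% rose and 11.4% fell in this comparison, and the median was 0.105. Without the filter 23 of 33 Hox genes rose, against 15.1% of all 18193 genes. By cluster 4 of 6 tested genes rose in Hoxa, 6 of 6 in Hoxb, 7 of 7 in Hoxc and 6 of 7 in Hoxd. Without the filter these counts were 5 of 9, 5 of 9, 7 of 7 and 6 of 8, and Hoxb13 was no longer called (adjusted p = 0.0534). Calls are from limma's moderated test, with Benjamini-Hochberg adjusted p under 0.05 over all genes tested.

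Each single mutant had 19 calls, and the same wild type arrays served all 3 comparisons. In Ring1B deficient cells 19 of 26 rose and 0 fell, with a median log2 change of 1.44, where 4.68% of all genes rose, 2.5% fell and the median was -0.0138. In Eed deficient cells 19 of 26 rose and 0 fell, with a median of 1.54, where 10.8% of all genes rose, 4.55% fell and the median was 0.0338. Without the filter 18 of 33 rose in Ring1B deficient cells, against 3.23% of all genes, and 18 of 33 in Eed deficient cells, against 7.48%. The 3 genes called in no mutant were Hoxa5, Hoxa13, a gene of the digits and the genital tract, and Hoxd3, a gene of the neck vertebrae. Their log2 changes in double deficient cells were 0.61, 0.69 and 0.72, with limma adjusted p of 0.0598, 0.0675 and 0.142.

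By cluster, the medians were higher in Hoxc and Hoxd than in Hoxa and Hoxb. In double deficient cells the median log2 change was 1.32 in Hoxa, 1.26 in Hoxb, 2.03 in Hoxc and 2.34 in Hoxd. In Ring1B deficient cells it was 0.79, 0.72, 1.58 and 2.40 in that order of clusters, with 3 of 6, 3 of 6, 7 of 7 and 6 of 7 genes called higher. In Eed deficient cells it was 0.79, 0.83, 1.76 and 2.14, with the same 4 counts. Without the filter the counts were 4 of 9, 2 of 9, 6 of 7 and 6 of 8 in Ring1B deficient cells and 3 of 9, 3 of 9, 6 of 7 and 6 of 8 in Eed deficient cells. This order of cluster pairs held in every mutant, with each gene read by its brightest probe set. For Hoxa3 and Hoxa5 these gave 0.21 and 0.04 in Ring1B deficient cells, while a second probe set of each rose by 1.46. Another Hoxa3 probe set gave -0.12 and was not called. Cluster medians were not computed with these other probe sets, so the low Hoxa median depends on the probe sets chosen. Differences between clusters were not tested, since the genes of a cluster share their arrays and the log2 changes start from different wild type signals.

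**Figure D2:**
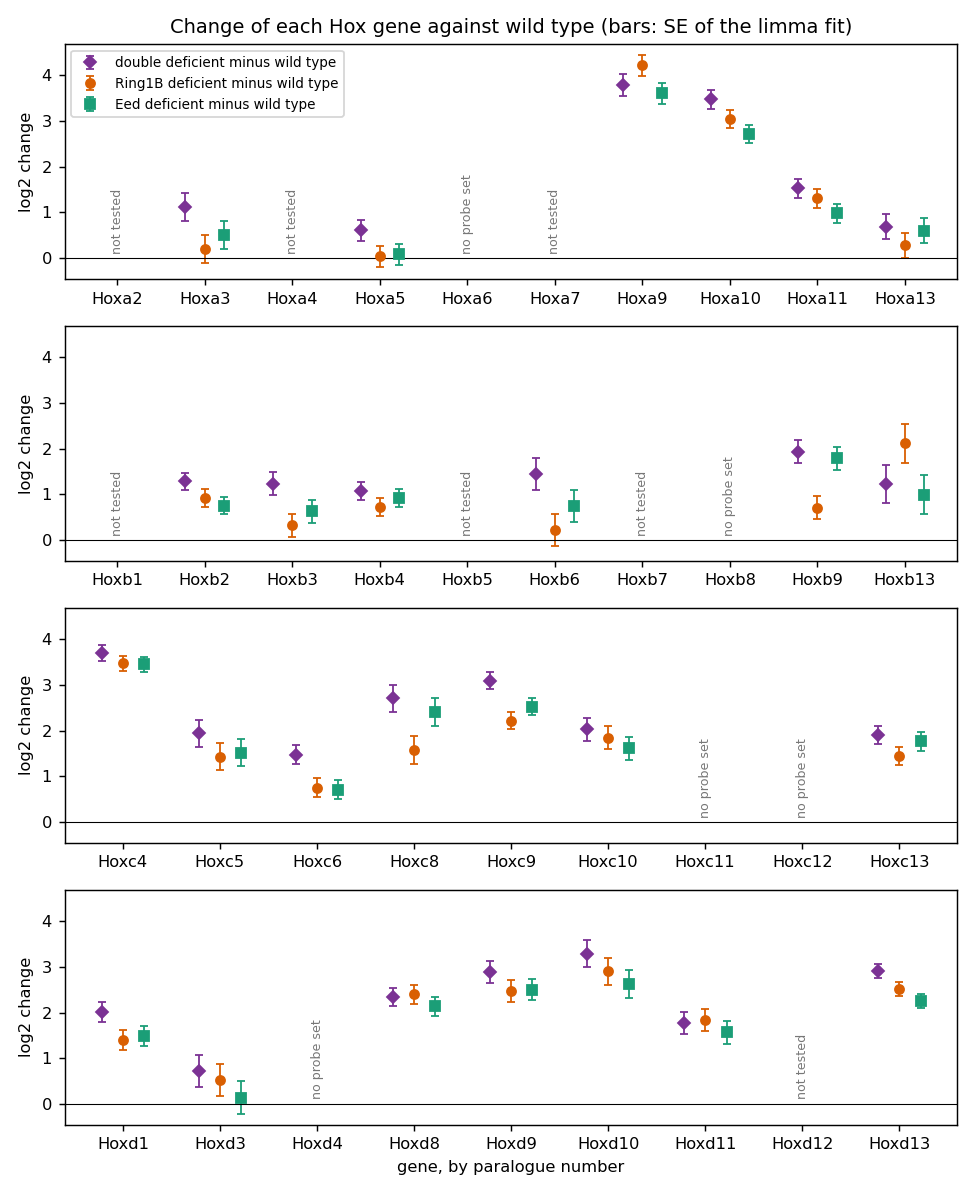
Log2 change against wild type (vertical axis, same scale in all panels, bars are SE of the limma fit) of each Hox gene by paralogue number, one panel per cluster, for double deficient, Ring1B deficient and Eed deficient cells. In Hoxa the change is under 1.2 at Hoxa3 and Hoxa5 and highest at Hoxa9, and in Hoxc it is highest at Hoxc4.

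In the Hoxa cluster Hoxa9 and Hoxa10 had the largest changes in each mutant. Hoxa9, a regulator of blood progenitors, had signals of 140.1, 122.0 and 107.1 in double deficient cells, 168.7, 174.9 and 154.8 in Ring1B deficient cells, 98.05, 99.93 and 124.4 in Eed deficient cells and 1.488, 3.519 and 9.075 in wild type cells. No mutant array overlapped with a wild type array, and the lowest mutant signal was that of Eed deficient replicate 1. Its log2 change was 3.79 in double deficient, 4.22 in Ring1B deficient and 3.60 in Eed deficient cells (SE 0.24 each, adjusted p = 1.57e-07, 1.58e-07 and 5.83e-07). Among all genes tested, 17, 3 and 9 had a larger log2 change in these 3 comparisons.

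Hoxa10, a gene of the uterus and the lumbar spine, had signals of 155.9, 120.1 and 150.9 in double deficient cells, 118.3, 100.8 and 95.22 in Ring1B deficient cells, 71.02, 72.19 and 104.8 in Eed deficient cells and 11.30, 5.899 and 7.966 in wild type cells. All wild type arrays lay far below every mutant array, and the log2 changes were 3.47, 3.05 and 2.71 in double, Ring1B and Eed deficient cells. Hoxa11, a gene of the middle limb segment and the kidney, had signals of 120.5, 67.09 and 96.12, then 79.24, 70.47 and 85.65, then 70.87, 53.06 and 61.33 in these mutants, and 32.04, 23.65 and 30.93 in wild type cells. It started from a wild type signal above the filter, its groups did not overlap with wild type, and its log2 changes were 1.53, 1.31 and 0.98.

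Hoxa3, which shapes the thymus and the parathyroid, had signals of 49.55, 48.89 and 61.49 in double deficient cells, 30.59, 18.57 and 30.18 in Ring1B deficient cells, 19.33, 30.26 and 60.37 in Eed deficient cells and 16.59, 23.63 and 26.05 in wild type cells. Only the double deficient arrays stood clear of the wild type arrays, and Eed deficient replicate 3 was apart from the other 2 of its group. The log2 change was 1.12 in double deficient cells (SE 0.31, adjusted p = 0.0142), and 0.21 and 0.52 in Ring1B and Eed deficient cells, not called (adjusted p = 0.776 and 0.291). The call was lost without double deficient replicate 3 (adjusted p = 0.0577) and without wild type replicate 1 (0.0523).

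Other probe sets of the low-numbered Hoxa genes gave another answer. A second Hoxa3 probe set, dimmer on average, rose in all 3 mutants, with log2 changes of 1.40, 1.46 and 1.17 in double, Ring1B and Eed deficient cells (adjusted p over all probe sets kept = 0.00132, 0.00443 and 0.00924), while another gave 0.20, -0.12 and -0.16 and was not called. A second Hoxa5 probe set also rose in each, with 1.39, 1.46 and 0.98 (adjusted p = 0.00197, 0.00641 and 0.0306), although the brighter one was not called in any. Which transcripts these probe sets read is not given in the sources used here. Hoxa9 had a second probe set too, whose changes of 1.32, 1.39 and 1.06 were called in the same direction but were smaller.

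Of the 9 measured Hoxb genes, Hoxb1, Hoxb5 and Hoxb7 did not pass the filter, and the 6 others were called in double deficient cells. Hoxb2, a hindbrain gene, had signals of 53.54, 47.55 and 59.30 in double deficient cells, 40.79, 40.25 and 40.02 in Ring1B deficient cells, 27.54, 36.76 and 43.10 in Eed deficient cells and 23.23, 16.44 and 17.60 in wild type cells. No mutant array reached down to a wild type one, and the log2 changes were 1.28, 0.92 and 0.75. The call in Eed deficient cells (adjusted p = 0.0159) was lost without Eed deficient replicate 2 (0.0511) or 3 (0.0772) or wild type replicate 3 (0.0532).

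Hoxb3, also a hindbrain gene, had signals of 44.38, 47.95 and 50.04 in double deficient cells, 32.08, 18.66 and 19.82 in Ring1B deficient cells, 21.71, 26.54 and 43.87 in Eed deficient cells and 13.83, 18.18 and 20.35 in wild type cells. The double deficient arrays lay above all others, and the 2 lower Ring1B deficient arrays lay within the wild type range. It was called in double deficient cells alone against wild type, with a log2 change of 1.23 (SE 0.25, adjusted p = 0.00215), against 0.33 and 0.63 in Ring1B and Eed deficient cells (adjusted p = 0.518 and 0.105). Hoxb6, active in lateral mesoderm, followed the same order, with 23.23, 32.43 and 20.48 in double deficient cells, 11.86, 4.479 and 8.193 in Ring1B deficient cells, 5.764, 19.95 and 18.30 in Eed deficient cells and 3.404, 8.593 and 6.537 in wild type cells. Its log2 change was 1.45 in double deficient cells (adjusted p = 0.00686), and both single mutants overlapped with wild type.

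Hoxb9, which patterns the rib cage, was high in cells without Eed. Its signals were 32.32, 50.63 and 37.34 in double deficient cells, 11.74, 14.72 and 16.13 in Ring1B deficient cells, 33.13, 34.78 and 38.04 in Eed deficient cells and 3.023, 8.752 and 9.428 in wild type cells. The Ring1B deficient arrays sat between the other mutants and wild type without overlap. Log2 changes against wild type were 1.93, 0.71 and 1.79 in double, Ring1B and Eed deficient cells, with the Ring1B value not called (adjusted p = 0.115).

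Hoxb13, a gene of the prostate and the tail tip, was ordered the other way. Its signals were 18.96, 32.72 and 7.555 in double deficient cells, 47.39, 44.91 and 22.81 in Ring1B deficient cells, 7.627, 22.45 and 15.16 in Eed deficient cells and 8.960, 4.168 and 1.924 in wild type cells. Only the Ring1B deficient arrays stood clear of the wild type range, with a log2 change of 2.12 (SE 0.42, adjusted p = 0.00823). The double deficient change of 1.23 was called (adjusted p = 0.0409) but 1 array lay within the wild type range. That call was lost without double deficient replicate 1 (0.0995) or 2 (0.168), Eed deficient replicate 3 (0.052), or wild type replicate 2 (0.0834) or 3 (0.145). Hoxb4, which expands blood stem cells, rose by 1.07, 0.73 and 0.92 on the log2 scale in double, Ring1B and Eed deficient cells. Its Ring1B deficient call (adjusted p = 0.0404) was lost without any 1 of the wild type, Ring1B deficient or double deficient arrays, with adjusted p from 0.0522 to 0.115, while a second probe set of the gene gave 1.67, 1.40 and 1.43, all called.

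All 7 measured genes of the Hoxc cluster were called in double deficient cells, and Hoxc11 and Hoxc12 were not analysed here. Hoxc4, a gene of the neck and upper trunk, had signals of 69.17, 88.97 and 85.58 in double deficient cells, 71.00, 70.62 and 63.44 in Ring1B deficient cells, 68.76, 67.17 and 65.44 in Eed deficient cells and 1.236, 0.988 and 2.695 in wild type cells. Its mutant arrays lay close together and wild type far below. The log2 changes were 3.70, 3.47 and 3.45 (SE 0.17 each, adjusted p = 1.05e-08, 6.8e-08 and 2.49e-08), and 20, 6 and 16 genes of all tested had larger ones.

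Hoxc8, which sets thoracic identity, had signals of 68.50, 76.61 and 61.22 in double deficient cells, 33.72, 30.96 and 22.27 in Ring1B deficient cells, 33.65, 52.17 and 90.15 in Eed deficient cells and 6.125, 3.354 and 10.37 in wild type cells. The Eed deficient arrays spread widely, with replicate 3 the highest of all 12. The log2 changes were 2.71, 1.58 and 2.40. Hoxc9, a gene of thoracic motor neurons, had 71.83, 72.01 and 78.76 in double deficient cells, 41.91, 41.52 and 32.06 in Ring1B deficient cells, 42.12, 44.27 and 61.49 in Eed deficient cells and 3.640, 5.048 and 4.261 in wild type cells. The double deficient arrays were above every other array, and the log2 changes were 3.09, 2.22 and 2.53.

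Hoxc10, a gene of the lumbar spinal cord, had signals of 51.08, 49.58 and 56.62 in double deficient cells, 50.87, 47.46 and 39.52 in Ring1B deficient cells, 31.17, 45.25 and 39.13 in Eed deficient cells and 8.849, 4.643 and 15.87 in wild type cells. No mutant array overlapped with wild type, and the log2 changes were 2.03, 1.85 and 1.62. Hoxc13, a gene of hair and nails, rose by 1.91, 1.45 and 1.76 on the log2 scale in double, Ring1B and Eed deficient cells, and Hoxc5, a gene of the neck and upper trunk, by 1.94, 1.43 and 1.52. Hoxc6, a gene of the upper thorax, had the smallest changes of the cluster, 1.48, 0.76 and 0.71. Without the filter its calls in both single mutants were lost (adjusted p = 0.0739 in Ring1B deficient and 0.0592 in Eed deficient cells). Its Ring1B deficient call (adjusted p = 0.0457) was lost without any 1 of 10 arrays, all but Eed deficient replicate 2 and double deficient replicate 3, with values from 0.051 to 0.149. Its Eed deficient call (0.0376) was lost without Eed deficient replicate 1 (0.0878) or 3 (0.146), double deficient replicate 1 (0.0523), or wild type replicate 1 (0.125) or 2 (0.0613).

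In the Hoxd cluster the tested genes from Hoxd8 to Hoxd13 rose in every mutant. Hoxd13, which shapes the digits, had signals of 176.8, 180.6 and 189.7 in double deficient cells, 156.9, 134.9 and 124.2 in Ring1B deficient cells, 108.0, 103.2 and 133.4 in Eed deficient cells and 18.36, 18.46 and 23.00 in wild type cells. The double deficient arrays were above all others and wild type was apart, with log2 changes of 2.91, 2.53 and 2.26. Hoxd10, a gene of lumbar motor neurons, had 81.75, 47.09 and 68.79 in double deficient cells, 54.61, 49.33 and 40.70 in Ring1B deficient cells, 41.60, 34.07 and 40.95 in Eed deficient cells and 7.339, 0.144 and 0.586 in wild type cells. The groups did not overlap with wild type, and the log2 changes were 3.29, 2.90 and 2.63.

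Hoxd9, a gene of the forelimb and the lumbar spine, had signals of 109.0, 132.6 and 110.8 in double deficient cells, 89.86, 111.3 and 65.56 in Ring1B deficient cells, 82.87, 90.87 and 92.26 in Eed deficient cells and 6.865, 18.63 and 10.98 in wild type cells. Hoxd8, a gene of the trunk, had 112.8, 142.7 and 104.1 in double deficient cells, 119.2, 144.5 and 110.3 in Ring1B deficient cells, 81.65, 114.4 and 116.4 in Eed deficient cells and 14.36, 25.39 and 19.82 in wild type cells. For both genes the mutants overlapped with each other and not with wild type. Log2 changes in double, Ring1B and Eed deficient cells were 2.89, 2.48 and 2.50 for Hoxd9 and 2.34, 2.40 and 2.14 for Hoxd8. Hoxd11, a gene of the forearm, rose by 1.78, 1.83 and 1.57 on the log2 scale, and Hoxd1, a gene of pain-sensing neurons at the other end of the cluster, by 2.02, 1.40 and 1.48.

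**Figure D3:**
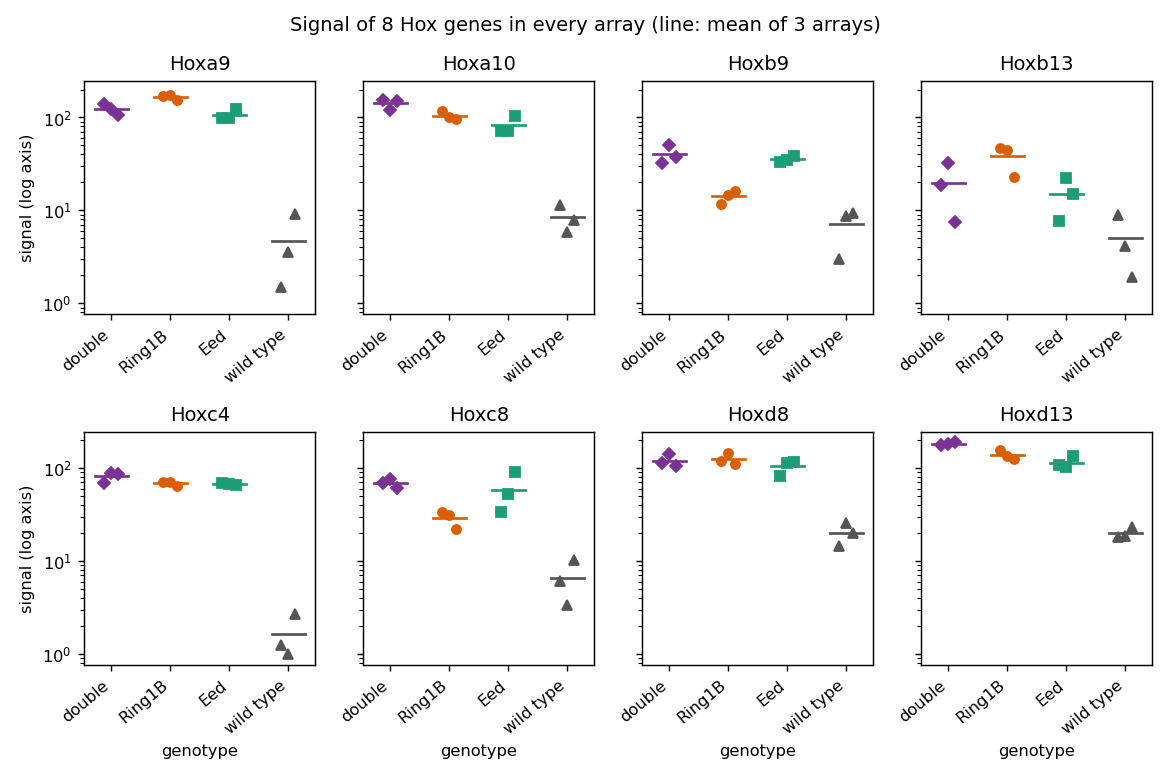
Signal of 8 Hox genes in each array (points, log axis) with the mean of the 3 arrays (line), in double deficient, Ring1B deficient, Eed deficient and wild type cells. Hoxb9 is low in Ring1B deficient cells beside the other mutants, Hoxb13 is highest there, and Hoxc4 lies near the same level in all mutants.

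Grouped by paralogue number, the posterior genes had the higher medians among tested genes. Most tested genes of groups 4 to 8 and 9 to 13 passed the filter only with the help of mutant arrays, so the medians are a description. Hoxa3 and Hoxa5 enter by their brightest probe sets, while a second probe set of each rose by 1.46 in Ring1B deficient cells and another of Hoxa3 was not called. In Ring1B deficient cells the median log2 change was 0.53 for the 5 tested genes of groups 1 to 3, 1.09 for the 8 of groups 4 to 8 and 2.12 for the 13 of groups 9 to 13, with 2, 6 and 11 called. In Eed deficient cells the medians were 0.63, 1.22 and 1.79, with 2, 6 and 11 called. In double deficient cells they were 1.23, 1.71 and 2.03, with 4, 7 and 12 called. The order of the medians held in each mutant and was not tested. Without the filter the counts were 2 of 7, 5 of 12 and 11 of 14 in each single mutant and 5 of 7, 7 of 12 and 11 of 14 in double deficient cells. In double deficient cells the share called without the filter was thus lowest in groups 4 to 8. Single genes departed from the order of the medians: Hoxc4 and Hoxd1 rose in every mutant at low positions, and Hoxa13, at the last position of its cluster, was called in none. Few low-numbered genes were tested, since Hoxa2, Hoxa4, Hoxb1, Hoxb5 and others did not pass the filter.

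Double deficient cells were then set against each single mutant. Against Ring1B deficient cells 6 of 26 Hox genes were higher and 0 lower, where 12.7% of all genes were higher and 5.98% lower, and the median log2 change was 0.41 against 0.114 for all genes. The 6 were Hoxb3 (0.91), Hoxb6 (1.22), Hoxb9 (1.22), Hoxc6 (0.72), Hoxc8 (1.13) and Hoxc9 (0.87), with limma adjusted p from 0.0052 for Hoxb9 to 0.0306 for Hoxc6. All lie in the Hoxb and Hoxc clusters, and none was called in Hoxa or Hoxd. Hoxa3, however, had the same change as Hoxb3, 0.91, just short of a call (limma adjusted p = 0.054), and Hoxd1 had 0.62 (0.0654). Under 5 and 4 of 22 alternative settings these 2 genes were called. A difference between clusters was not tested. Under quantile normalization or with each array centred on its median, 2 of 26 genes were called, Hoxb9 and Hoxc9, where 9.27% and 6.89% of all genes were called higher, a share near that of the Hox genes. The other 4 calls were also lost with 1 array left out, with adjusted p from 0.0504 to 0.133. For Hoxb3 and Hoxb6 these arrays were Ring1B deficient replicates 2 and 3 and each double deficient array. For Hoxc6 they were each Ring1B deficient array and double deficient replicates 1 and 3, and for Hoxc8 they were Ring1B deficient replicate 3 and each double deficient array. At 2-fold or more 3 of the 6 were called, where 6% of all genes were higher by as much.

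Against Eed deficient cells, double deficient cells had higher fitted means for all 26 Hox genes, with a median log2 change of 0.48 against 0.057 for all genes. With each array centred on its median, 22 of 26 were positive. A single Hox gene was called, Hoxd13, with a log2 change of 0.65 (SE 0.15, adjusted p = 0.0486), where 1.07% of all genes were higher and 0.822% lower. At 2-fold or more no Hox gene was called, where 0.701% of all genes were, and none without the filter, where 0.748% were higher. That call was lost under 16 of the 22 alternative settings, with adjusted p up to 0.191. Among these were the fits without any 1 of the double deficient or Ring1B deficient arrays, without replicate 1 or 2 of the Eed deficient cells, or without replicate 2 or 3 of wild type.

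Between the single mutants 1 of 26 Hox genes was called, a share near that over all genes. Eed deficient cells had a higher Hoxb9 level than Ring1B deficient cells, with a log2 change of 1.08 (SE 0.25, adjusted p = 0.0283), where 3.37% of all genes were higher and 1.11% lower. The call was lost without any 1 of the 6 arrays of these genotypes, with adjusted p from 0.0583 to 0.107. Hoxb13 had the opposite sign, -1.13 (SE 0.42), and was not called (adjusted p = 0.161). Over the 26 genes the median difference was 0.00, and the range ran from -1.13 to 1.08. Hoxa7, a trunk gene that did not pass the filter, had 12.53, 5.070 and 5.475 in double deficient cells, 24.09, 9.275 and 20.17 in Ring1B deficient cells, 4.838, 2.338 and 3.874 in Eed deficient cells and 2.625, 2.667 and 3.259 in wild type cells. In the fit without a filter it was higher in Ring1B deficient than in wild type cells (1.48, adjusted p = 0.0101) and lower in Eed deficient than in Ring1B deficient cells (-1.34, adjusted p = 0.0278). Over all genes of that fit, the Eed deficient cells had 2% called higher and 0.704% called lower.

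The loss of Ring1B could be followed in cells with and without Eed. The interaction is the change from Ring1B loss in Eed deficient cells minus the change from Ring1B loss in cells with Eed, and it uses all 4 genotypes. It was called for 10 of 26 Hox genes, each time negative, where 1.19% of all genes were called lower and 0.708% higher. The median was -1.14 for the Hox genes and 0.0615 for all genes. Of 18 endoderm markers, 9 were called lower and 0 higher in the same term, with a median of -1.67, and their part in the Hox result was not tested. Without the filter 9 of 33 were called, against 0.704% of all genes. For Hoxa9 the change was 0.19 in Eed deficient cells and 4.22 in cells with Eed (interaction -4.03, SE 0.33, adjusted p = 3.06e-05). For Hoxc4 it was 0.25 and 3.47 (-3.22, SE 0.24, adjusted p = 1.4e-05), and for Hoxd13 0.65 and 2.53 (-1.87, SE 0.22, adjusted p = 9.07e-04).

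The remaining 7 were Hoxa10 (-2.29), Hoxc9 (-1.66), Hoxc13 (-1.31), Hoxd8 (-2.20), Hoxd9 (-2.10), Hoxd10 (-2.24) and Hoxd11 (-1.62). By cluster the 10 were 2 genes of Hoxa, 0 of Hoxb, 3 of Hoxc and 5 of Hoxd. By position they were 0 of 5 genes of groups 1 to 3, 2 of 8 of groups 4 to 8 and 8 of 13 of groups 9 to 13. Of the 10, only Hoxc13, Hoxd8 and Hoxd13 had all 3 wild type arrays above the 40th percentile. The others passed the filter only with the help of mutant arrays in which they were high. Both splits are therefore a description, and differences by cluster or position were not tested. In Hoxb, Hoxb13 had an interaction of -1.89 with a wide SE of 0.60 and was not called (adjusted p = 0.129). Hoxc6 had an interaction of 0.01 (SE 0.30), with changes of 0.77 and 0.76 in the 2 backgrounds. The second probe set gave -1.13 for Hoxa9 (adjusted p = 0.103), -2.20 for Hoxd8 (0.0133) and -1.60 for Hoxd13 (0.0431). The call of Hoxd10 (adjusted p = 0.0168) was lost without double deficient replicate 3 (0.0531). That of Hoxc13 (0.0303) was lost without wild type replicate 1, Ring1B deficient replicates 1 or 2, Eed deficient replicate 2 or any 1 of the double deficient arrays (0.0521 to 0.0907). That of Hoxd11 (0.0285) was lost without Ring1B deficient replicates 1 or 3, Eed deficient replicates 1 or 3 or any 1 of the double deficient arrays (0.0571 to 0.0736).

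**Figure D4:**
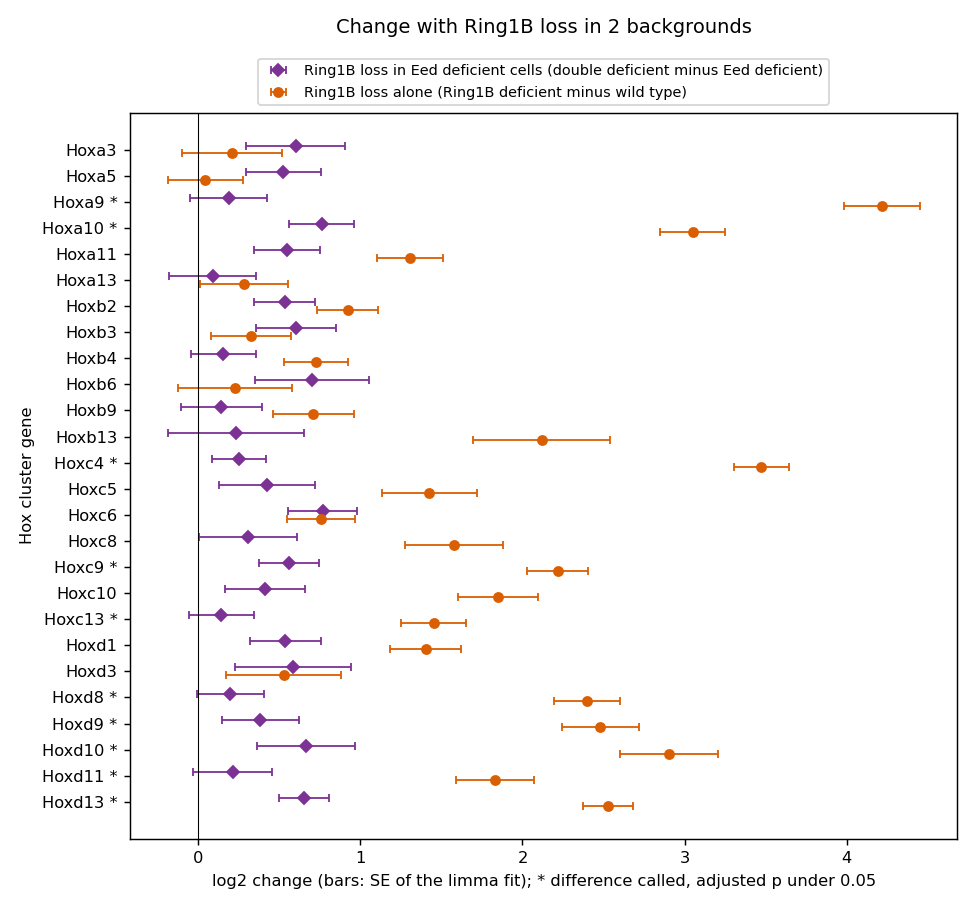
Log2 change with Ring1B loss (horizontal axis, bars are SE of the limma fit) for the 26 tested Hox genes, in Eed deficient cells (diamonds) and in cells with Eed (circles), with a star at the 10 genes whose difference was called. The diamonds stay between 0 and 1 and the circles reach 4.22 at Hoxa9.

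Other genes of the Hox pathway were read from lists chosen for their roles. Of 8 tested TALE cofactors, the homeodomain partners that bind DNA with Hox proteins, 3 rose and 1 fell in double deficient cells, and 2 rose and 0 fell in each single mutant. Over all genes 19.5% rose and 11.4% fell in double deficient, 4.68% and 2.5% in Ring1B deficient and 10.8% and 4.55% in Eed deficient cells. The median log2 changes of the 8 were 0.43, 0.34 and 0.33 in that order. Meis1 averaged 40.87 ± 7.90 in double deficient cells, 32.90 ± 2.84 in cells lacking Ring1B, 27.05 ± 1.98 in those lacking Eed and 7.685 ± 1.78 in wild type cells (SD, n = 3), with log2 changes of 1.85, 1.59 and 1.35. Meis2 averaged 110.8 ± 22.9, 104.2 ± 29.4, 65.79 ± 16.4 and 23.55 ± 8.79 in the same order, with log2 changes of 2.04, 1.94 and 1.33. In double deficient cells Meis3 rose by 1.15 and Pbx4 fell by 0.77 on the log2 scale.

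Of 10 tested upstream regulators of Hox genes, 3 rose and 1 fell in double deficient cells, and 2 rose and 0 fell in each single mutant. All genes together had 19.5%, 4.68% and 10.8% higher and 11.4%, 2.5% and 4.55% lower in double, Ring1B and Eed deficient cells. The median log2 changes of the 10 regulators were 0.01, -0.17 and 0.03 in that order, so the list as a whole did not move with the Hox genes. Cyp26a1, the enzyme that breaks down retinoic acid, had signals of 290.9, 318.7 and 299.0 in double deficient cells, 73.31, 70.93 and 51.37 in Ring1B deficient cells, 224.8, 209.2 and 202.0 in Eed deficient cells and 14.04, 12.65 and 10.74 in wild type cells. Its 4 groups did not overlap, and the log2 changes were 4.14, 2.00 and 3.64. Cdx2, an activator of posterior Hox genes, averaged 37.50 ± 5.09, 23.74 ± 3.36, 29.61 ± 10.3 and 7.442 ± 7.45 in double deficient, Ring1B deficient, Eed deficient and wild type cells, with log2 changes of 1.92, 1.36 and 1.59. In double deficient cells Zbtb16, a zinc finger regulator of limb Hox genes, rose by 1.15 and Rara, a retinoic acid receptor, fell by 1.04 on the log2 scale.

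Genes that flank the clusters were called in both directions. Of 17 tested neighbours 2 rose and 6 fell in double deficient cells, where 19.5% of all genes rose and 11.4% fell, 1 rose and 1 fell in Ring1B deficient cells, and 1 rose and 2 fell in Eed deficient cells, and their median log2 changes were -0.27, -0.12 and 0.13. Mtx2, a mitochondrial protein gene beside Hoxd, rose by 0.64, 0.70 and 0.61 on the log2 scale in double, Ring1B and Eed deficient cells. The homeobox genes at the posterior cluster ends were not called: Evx1 next to Hoxa13 had 1.17 in double deficient cells (adjusted p = 0.051) and Evx2 next to Hoxd13 had 0.40 (adjusted p = 0.222). Cbx5, a heterochromatin protein gene near Hoxc, fell by 1.07 in double deficient cells. A tested list of 10 other genes held Polycomb genes and the histone demethylase genes Kdm6a and Kdm6b. Of these 10, 1 rose in each mutant, Bmi1, a PRC1 subunit, with 2.01, 1.45 and 1.75 in double, Ring1B and Eed deficient cells. In double deficient cells Ezh2, the PRC2 methyltransferase, fell by 0.60 and Cbx7, a PRC1 subunit, by 0.94. The median log2 changes of these 10 genes were -0.36, -0.12 and -0.05 in double, Ring1B and Eed deficient cells. In the single mutants 4.68% and 10.8% of all genes rose.

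Markers of other cell types moved in some of the same comparisons. In bulk RNA, more cells of a type and more RNA per cell cannot be told apart. Of 24 tested fibroblast and feeder markers, 20 rose in double deficient cells, 2 in cells lacking Ring1B and 10 in those lacking Eed, and 0 fell. In these mutants 19.5%, 4.68% and 10.8% of all genes rose. Their summed signal was 12390 to 13710 in double deficient cells, 3200 to 4392 in cells lacking Ring1B, 6001 to 12470 in those lacking Eed and 4729 to 5147 in wild type cells, and 0, 3, 0 and 1 markers lay below the 40th percentile on all 3 arrays. The Ring1B deficient sums were below every wild type sum. The highest Eed deficient sum was that of replicate 3. Of the 26 Hox genes, 15 were highest among Eed deficient arrays in replicate 3, 5 in replicate 1 and 6 in replicate 2. The same was not counted over all genes, so the 15 cannot be read as a trait of Hox genes. The part of such cells in the Hox changes of the 3 mutants was not tested.

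Of 18 endoderm markers, 15 rose in double deficient cells, 14 in cells lacking Ring1B and 15 in those lacking Eed, and 0 fell. For these and the counts below, 19.5%, 4.68% and 10.8% of all genes rose and 11.4%, 2.5% and 4.55% fell in these mutants. Their summed signal was 10160 to 11980 in double deficient cells, 5087 to 7314 in cells lacking Ring1B, 6449 to 10990 in those lacking Eed and 1394 to 1841 in wild type cells, with 0, 0, 0 and 4 markers below the percentile on all 3 arrays. The sums rose with the Hox genes in every mutant, and their part in the Hox result was not tested. Of 8 mesoderm markers, 4, 2 and 3 rose in double, Ring1B and Eed deficient cells and 0 fell, with summed signals of 302.1 to 403.8, 237.8 to 297.1 and 272.2 to 300.7, against 100.7 to 186.6 in wild type cells. Of 6 neural markers, 1 rose and 1 fell in double deficient cells, 0 rose and 2 fell in Ring1B deficient cells and 1 rose and 1 fell in Eed deficient cells.

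**Figure D5:**
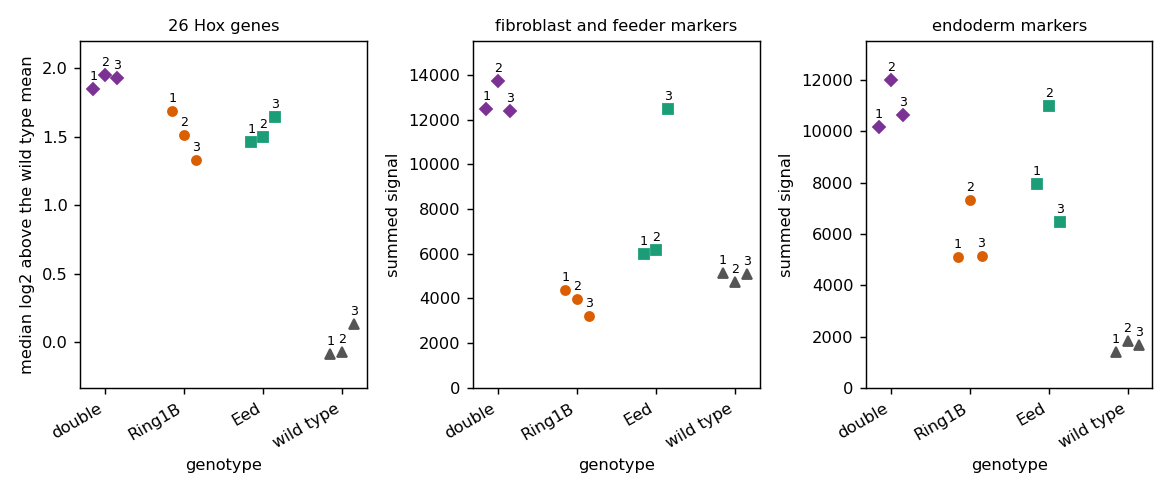
Median log2 level of the 26 tested Hox genes above the wild type mean (left) and summed signal of fibroblast and feeder markers (middle) and endoderm markers (right) in each array, numbered by replicate. The Hox median is 1.85 to 1.95 in double deficient arrays, 1.33 to 1.69 in those lacking Ring1B, 1.46 to 1.64 in those lacking Eed and -0.09 to 0.13 in wild type arrays. The endoderm sum is lowest in wild type arrays and the fibroblast sum in Ring1B deficient arrays.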

How the data were processed

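RNA of 12 samples was hybridised to Affymetrix mouse expression arrays. The authors deposited linear intensity values, for which the submitters' processing notes name MAS5 and no settings. Leaving off 2% of the values at either end, the array of wild type replicate 1 averaged 100, and the other arrays were not checked for this. Detection calls were not analysed here. Of 45101 probe sets, 34945 had 1 gene symbol in the platform annotation, 932 several, 9160 none listed, and 64 were controls; several-symbol probe sets named no gene.

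Signals were turned into log2 after adding 5, without further normalization. Each gene was tested by the probe set with the highest mean among 25251 kept. limma 3.58.1 in R 4.3.3 (lmFit, then eBayes with an intensity trend) fitted 1 mean per genotype over 12 arrays; Benjamini-Hochberg adjustment ran over 13985 genes, called under 0.05. The script was tested on simulated data. Genes with values per array were the up to 4 largest double deficient changes per cluster, those called in the interaction or against Eed deficient cells up to 8, and members whose probe sets were called with opposite signs (none); Hoxb13, Hoxa7, Hoxa2 and Cyp26a1 were added after their values were seen. Members, lists and settings were chosen with earlier results of these data known. Promoters came from RefSeq (GRCm38.p6). The main fit did not pair arrays by replicate number, since the labels name no pairing. Of 18 same-number pairs, 13 correlated above 0.1, and the others were all of replicate 3. Counts with the replicate number as a block are given below. Alternatives changed scaling, added value, filter, probe set, trend, samples and block. The number of arrays limits the precision.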

Additional observations from a re-analysis of the deposited data

Results flagged for a closer look

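In 10 Hox genes the change with Ring1B loss differed between Eed deficient cells and cells with Eed, by the interaction term of the limma fit. On the log2 scale, the change in Eed deficient cells minus the change in cells with Eed was -4.03 for Hoxa9, -2.29 for Hoxa10, -3.22 for Hoxc4, -1.66 for Hoxc9 and -1.31 for Hoxc13. It was -2.20 for Hoxd8, -2.10 for Hoxd9, -2.24 for Hoxd10, -1.62 for Hoxd11 and -1.87 for Hoxd13. The limma adjusted p lay between 1.4e-05 for Hoxc4 and 0.0303 for Hoxc13. No gene of the Hoxb cluster was among them, though Hoxb13 had -1.89 (SE 0.60) and was not called (adjusted p = 0.129). With 3 arrays in each group, single arrays were not screened as outliers.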

How the results depend on the processing

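The direction of every Hox change that was called stayed the same under all alternatives run. The counts against wild type moved by less than 1.5 times, and with 1 array left out they ran from 22 to 24 for double deficient cells and from 17 to 19 for each single mutant, and the interaction count from 7 to 11. Of the calls against wild type, 21 of 23 held for double deficient cells and 17 of 19 for each single mutant. The interaction kept 7 of 10. These counts are over the alternatives followed gene by gene, which leave out the 2-fold cut and the fit of every probe set. Called changes under 2-fold included Hoxb2 in Ring1B deficient cells (log2 change 0.92) and Hoxa11 in Eed deficient cells (0.98). The stricter filter dropped Hoxb6 and Hoxc5, so their calls were not tried there. Against Ring1B deficient cells the double deficient count of 6 became 2 under quantile normalization, where 9.27% of all genes were higher, 2 with arrays centred on their median, where 6.89% were, and 3 at 2-fold or more, and 2 to 7 with 1 array left out. Against Eed deficient cells the count of 1 became 0 with centring, with 1 added in place of 5, without the filter, with the mean of the probe sets, with every probe set, without the intensity trend, with only the 2 genotypes, and at 2-fold or more; it became 2 with 20 added, and 0 to 2 with 1 array left out. The Eed against Ring1B deficient count of 1 became 0 with 1 added and 2 without the filter, and 0 to 1 with 1 array left out. The cause was not tested.

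With the replicate number as a block, counts against wild type were 24 for double deficient cells and 20 for each single mutant, 8 for double against Ring1B deficient, 4 for double against Eed deficient, 2 for Eed against Ring1B deficient and 13 for the interaction. Correlations of the deviations of same-number arrays ran from -0.0477 to 0.614, and 9 of 12 arrays correlated best with their own number, a hint from the data and not from the design.

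Scaling moved all genes together. The median log2 change of all genes in double deficient cells was 0.105, became 0.000341 under quantile normalization and -0.145 with centring, and the calls were 2723 higher and 1588 lower, 2204 and 1811, and 1691 and 3141. For Eed deficient cells they were 1509 and 637, 1346 and 664, and 1150 and 795. All 26 Hox genes stayed positive in each mutant against wild type under all 3. Signals near background limit genes of every cluster.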

Other observations

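Of 3 antisense transcripts of the clusters, picked after their values were seen, 2 rose in every mutant by the probe set tested. These 2 passed the filter only through mutant arrays. Over all genes 19.5%, 4.68% and 10.8% rose in double, Ring1B and Eed deficient cells. A second Hoxa11os probe set, at 0.172 to 3.337 over all arrays, and a second Hoxd3os1 probe set did not pass the filter. Hoxa11os had signals of 89.73, 76.71 and 67.03 in double deficient cells, 46.66, 77.51 and 43.87 in Ring1B deficient cells, 43.64, 33.37 and 46.31 in Eed deficient cells and 2.749, 1.491 and 2.032 in wild type cells. Its log2 changes were 3.54, 3.07 and 2.69, and its interaction was -2.22 (limma adjusted p over all probe sets kept = 0.00339). Hoxd3os1 had 36.28, 24.07 and 30.60 in double deficient cells, 29.82, 18.74 and 32.25 in Ring1B deficient cells, 18.51, 19.57 and 30.86 in Eed deficient cells and 0.423, 0.875 and 5.581 in wild type cells, with log2 changes of 2.33, 2.17 and 1.98, while Hoxd3 itself was called in no mutant. The tested probe sets of both stood clear of wild type in every mutant array. Hoxb5os was not called in any mutant, with log2 changes of 0.08, -0.57 and -0.30.

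Of the 7 Hox genes that did not pass the filter, Hoxa7 is described above. In the fit without a filter Hoxa2, a hindbrain gene, had 15.43, 13.66 and 21.18 in double deficient cells and 11.36, 4.925 and 4.057 in wild type cells (log2 change 0.92, limma adjusted p = 0.0303). Hoxa4, Hoxb1, Hoxb5, Hoxb7 and Hoxd12 were called in no mutant against wild type, with double deficient log2 changes of -0.04, 0.51, 0.22, 0.46 and 0.17. A probe set shared by Hoxd4 and Hoxd3, which names neither, rose by 1.59, 1.75 and 1.25 on the log2 scale in double, Ring1B and Eed deficient cells, and another one shared by the same genes had 0.38, -0.24 and -0.07 and was not called.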
